A study of Mus musculus with 145 samples.

Results

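The cytosolic ribosomal protein genes encode the protein parts of the ribosomes that translate nuclear messages. They were taken as every symbol of the single-cell count table that reads Rpl or Rps followed by a number and at most one letter a, x or y, together with *Rplp0*, *Rplp1*, *Rplp2*, *Rpsa* and *Fau*. Pseudogene names and the paralogues *Rpl10l*, *Rpl39l*, *Rpl3l*, *Rpl22l1* and *Rps27l* were left out. The rule gave 77 of 24615 gene symbols, 46 of the large and 31 of the small subunit, and the rule reads names, not values. *Rps3a1* and *Rack1*, which also belong to the ribosome, do not match the rule. Of the 77 genes 14 lay on chromosome 7 and 4 on the X chromosome (*Rpl10*, *Rpl36a*, *Rpl39* and *Rps4x*).

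The study followed mouse spermatogonial stem cells (SSCs) as they turned into pluripotent stem cells of germline origin (gPSCs) in culture. The SSCs came from B6D2F1 males of postnatal day 5.5, whose C57BL/6 mothers carried Oct4-EGFP and whose fathers were DBA/2, and were grown on mitomycin C-treated mouse embryonic fibroblast feeders. Cells were picked by hand from SSC-like and PSC-like colonies, so class sizes are not shares of the culture. Transcriptomes of single cells were read as UMIs, molecules counted once by a random tag, with modified STRT-seq in 46 libraries of the original condition on days 0, 8, 10, 12, 14, 16, 18, 20, 23 and 27 (4339 cells), and in 1 library each of gPSCs at passage 1, gPSCs at passage 15 and mouse embryonic stem cells (mESCs). Reprogramming cells were in SSC medium, and the paper kept gPSCs and ESCs on feeders in N2B27 medium with inhibitors and LIF. Its ESCs came from Oct4-EGFP blastocysts of B6D2F1 background. The RNA arm of scTrio-seq2 added 8 samples reprogrammed with 5C (724 cells), a mix of SGC707, vitamin C, EGCG, Daphnetin and TUDCA, and 5 samples given the solvent DMSO (365 cells).

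The authors sorted the cells into SSC1 to SSC4, the reprogramming stages RPG1 to RPG4, and side branches called fibroblast, early-pluripotent, meiotic and neural, from the same transcriptomes that are compared here, so a comparison of classes describes the classes. Counts were summed per library and class where at least 5 cells were present, which gave 36 libraries for SSC1-4, 7 for RPG1, 3 for RPG2, 8 for RPG3, 2 for RPG4, 5 for fibroblast, 3 for early-pluripotent, 6 for meiotic and 12 for neural. A library is named by its day and number, so that day 18_5 is library 5 of day 18. Libraries held 15975410 to 34609591 UMIs and the 82 sums held 433094 to 34168335. Reprogramming was run in 2 batches, and the deposited annotation puts each library in batch B1 or B2. Beyond that nothing in the sources used here ties single libraries to separate animals or cultures, so the p-values measure the spread between libraries, which may be technical. Summed markers went with the class names in SSC1-4 and RPG3: *Zbtb16*, *Dazl* and *Dmrt1* together gave 797 to 1898 CPM (a gene's UMIs relative to the scaled UMI total of the sum) in SSC1-4 and 79.6 to 222 in RPG3, and *Pou5f1*, *Nanog* and *Sox2* together gave 3.81 to 99.2 and 431 to 668. *Dppa2* and *Esrrb*, markers of the early-pluripotent class, did not set it apart, at 16.5 to 19.6 CPM beside 0 to 29.7 in SSC1-4 and 244 to 406 in RPG3. Neural markers gave 0 to 115 CPM in neural cells and 0 to 28.3 in SSC1-4. Meiotic markers gave 13.1 to 95.5 CPM in meiotic cells and 2.39 to 84.3 in SSC1-4. Fibroblast markers gave 42.4 to 796 CPM in fibroblast cells and 0 to 20.2 in SSC1-4. The 10 markers of feeder and somatic cells summed to 16.1 to 182 CPM in SSC1-4 and 20.0 to 86.5 in RPG3, and none of them was at 0 in every library of either class. In RPG2 they summed to at most 13.3 CPM and *Dcn*, *Lum* and *Cyp11a1* were at 0.

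Each ribosome holds one copy of most of these proteins, so their genes are known for being expressed together and in large amounts. Many of their messages start with a C followed by a run of pyrimidines, the 5′ terminal oligopyrimidine (TOP) tract, through which mTOR signalling and Larp1 control their translation. Growth and cell division are known to draw heavily on ribosome supply, and Myc proteins raise the transcription of ribosome genes.

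The start sites show how far the members share this tract. RefSeq promoters of GRCm38.p6 covered 57 of the 77 genes. Among those for which no start site was read were *Rpl23a*, *Rpl29*, *Rplp1*, *Rps27a* and *Rps29*, which are described further on. Windows of 30 bases are shown, 10 before and 20 from the annotated start on, with the longest run of C and T in capitals. The first 4 genes have long runs and the last 4 are the X-linked members, of which *Rps4x* and *Rpl39* had the largest fold changes in RPG3.
Fau, chr19:6057937-6057966, plus strand: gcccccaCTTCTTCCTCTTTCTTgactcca
Rps6, chr4:86857348-86857377, minus strand: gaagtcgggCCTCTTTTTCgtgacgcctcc
Rpl7a, chr2:26910797-26910826, plus strand: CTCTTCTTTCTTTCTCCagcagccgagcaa
Rpl27a, chr7:109519185-109519214, plus strand: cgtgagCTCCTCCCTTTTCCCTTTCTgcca
Rpl39, chrX:37085203-37085232, minus strand: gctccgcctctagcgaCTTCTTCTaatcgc
Rpl10, chrX:74270806-74270835, plus strand: tacagtggaagataggccgCCTatataagg
Rpl36a, chrX:134585644-134585673, plus strand: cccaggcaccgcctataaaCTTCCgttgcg
Rps4x, chrX:102189372-102189401, minus strand: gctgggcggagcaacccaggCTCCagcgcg

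Of the 67 annotated start sites of the 57 members, 14 (20.9%) opened with a C in a run of at least 5 pyrimidines, against 2.51% of all 32851 start sites in the table. The search read the transcribed strand only. A run of at least 6 pyrimidines anywhere from 10 bases before to 15 after the start was present at 50.7% of the members' sites and 25.3% of all sites, and the median longest run was 6 bases against 4. The first of these measures depends on a start being annotated to the base. The 14 members with the tract by that first measure had a median log2 fold change of 0.31 in RPG3 against SSC1-4 and the 43 without it 0.36. The 43 include *Rpl7a* and *Rpl27a*, whose long runs span an annotated start at a T, so the split depends on the annotated start.

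The share of all UMIs that came from the 77 genes had its highest median in SSC1 when all cells were used, and in RPG3 among cells of 100000 to 400000 UMIs, where it was 7.32% in RPG3 (n = 7), 6.90% in Neural 3 (n = 2), 6.86% in RPG2 (n = 2) and 6.64% in SSC1 (n = 18). With all cells the values were as follows. Over libraries it ran from 5.70% to 13.2% in SSC1 with a median of 7.68% (n = 28), from 4.88% to 6.79% in SSC2 with a median of 5.67% (n = 23), from 4.17% to 6.40% in SSC3 with a median of 4.89% (n = 18) and from 4.67% to 7.58% in SSC4 with a median of 5.46% (n = 16). Along the reprogramming stages the median was 5.87% in RPG1 (5.45% to 6.37%, n = 7) and 6.91% in RPG3 (5.94% to 7.29%, n = 8). The 3 RPG2 libraries had 5.19%, 6.51% and 6.62%, and the 2 RPG4 libraries 6.63% and 5.97%. Apart from SSC1, RPG3 thus had the highest median of the SSC and RPG clusters. The highest single library outside SSC1 among these was one of SSC4, at 7.58%, and the ranges of neighbouring clusters overlapped. Early-pluripotent cells had the lowest median of the classes, 4.78% (4.66% to 5.23%, n = 3).

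The share went with the depth of the cells. Within a cluster of 1 library, cells with more UMIs had a lower share, with a median Spearman correlation of -0.93 in SSC1 (665 cells of 15 libraries), -0.94 in RPG1 (321 cells of 7 libraries) and -0.85 in RPG3 (244 cells of 6 libraries), and the correlation was below 0 in every library examined. UMIs of the members are part of the total, so the measures are not independent. The highest SSC1-4 sum, 10.3% in day 16_2, came from 10 cells with a median of 57881 UMIs, and the 8 SSC1-4 cells of day 16_6 had a median of 11698 UMIs and a share of 7.69%. The median SSC1 cell held 149268 UMIs, of which 12528 came from the members. The median SSC3 cell held 378770 UMIs, of which 17882 came from the members, so it had more ribosomal protein molecules than an SSC1 cell and a smaller share of them. The median RPG3 cell held 285699 UMIs, of which 19560 came from the members.

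Clusters were also compared inside a library. SSC1 was above SSC2 in 21 of 21 libraries with a median ratio of 1.22, and the SSC1 cells were shallower in every one of these. The median percent of mitochondrial UMIs per library, a sign of RNA quality, was 0.861 to 2.54 in SSC1, 0.681 to 1.14 in SSC2 and 0.599 to 0.983 in SSC3, and its part in the shares was not tested. With cells of 100000 to 400000 UMIs only, the SSC1 share was above that of SSC2 in 16 of 16 with a median ratio of 1.11. SSC2 was above SSC3 in 12 of 12 libraries, and in 8 of 10 with cells of that depth. RPG3 was above RPG1 in 7 of 7 libraries. The RPG3 and RPG1 shares were 6.87% and 5.76% in day 18_3, 7.18% and 6.06% in day 18_5, 6.77% and 5.87% in day 20_1, 6.96% and 5.61% in day 20_2, 7.20% and 6.37% in day 20_8, 7.29% and 5.92% in day 23_1, and 6.85% and 5.45% in day 23_2. The ratio was 1.13 to 1.26 with a median of 1.19. The RPG3 cells were the deeper ones in 6 of these 7 libraries, and at 100000 to 400000 UMIs the median ratio was 1.23. The median mitochondrial percent was lower in RPG3 than in RPG1 in each of the 7, at 0.561 to 0.804 and 0.718 to 1.02, and its part was not tested. RPG4 was below RPG3 in both libraries that held the pair, with ratios of 0.98 and 0.86. The RPG4 cells were the deeper ones in both, and at 100000 to 400000 UMIs 1 library held the pair, with a ratio of 0.91.

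**Figure D1:**
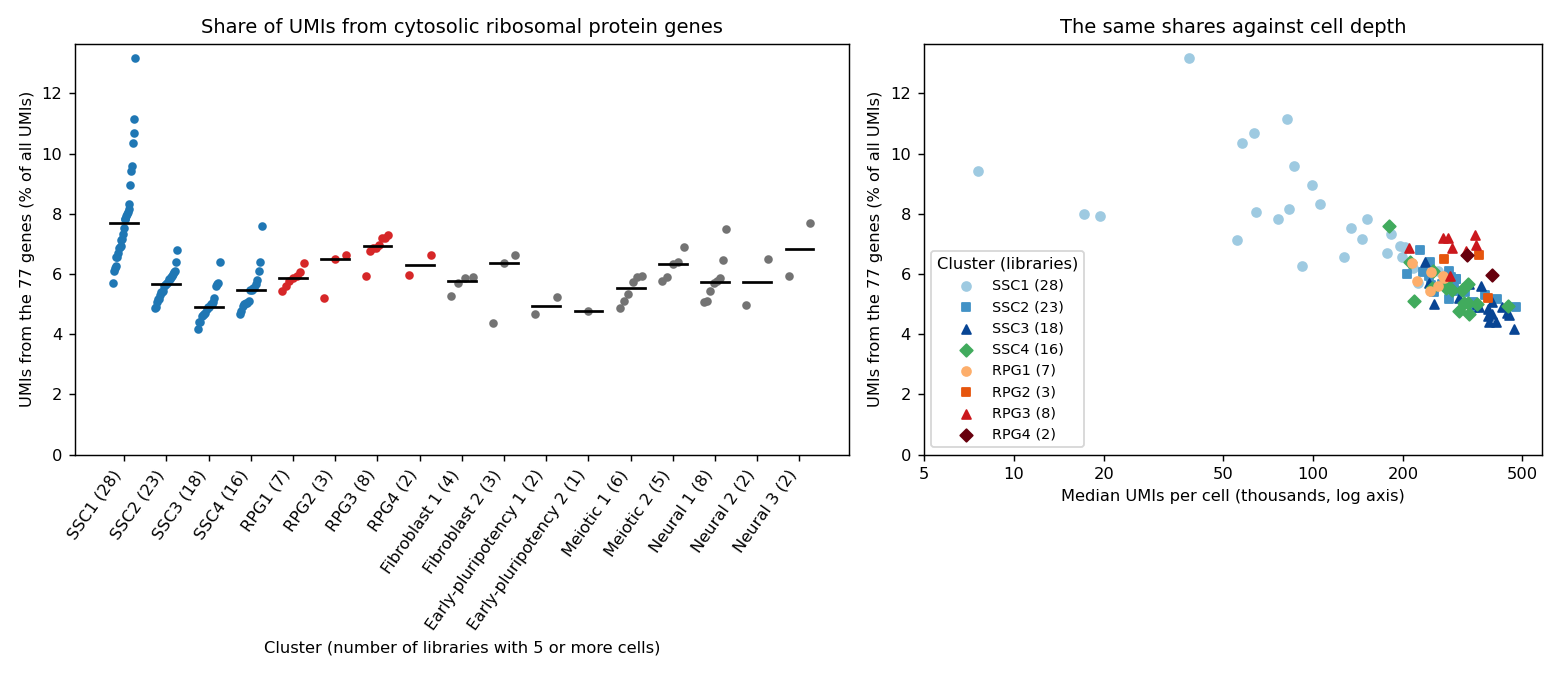
Percent of UMIs from the 77 ribosomal protein genes. Left, each point is 1 library with at least 5 cells of the cluster, and the bar is the median; right, the shares of the SSC and RPG clusters are plotted against the median UMIs per cell (log axis). SSC1 libraries reach 13.2% and sit at the shallow end, and 7 of the 8 RPG3 libraries lie between 6.77% and 7.29%, and the highest SSC2, SSC3 and SSC4 libraries reach 6.79%, 6.40% and 7.58%, so the ranges overlap.

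In RPG3 61 of the 77 members were higher than in SSC1-4 and none was lower (edgeR quasi-likelihood test with Benjamini-Hochberg adjustment over 20030 genes, adjusted p below 0.05). Over all genes tested 25.2% were higher and 31.5% were lower. The median log2 fold change was 0.34 over the members and -0.25 over all genes, and all 77 values were above 0, from 0.02 for *Rps15a* to 1.74 for *Rps4x*. The 61 were 36 genes of the large and 25 of the small subunit, and the medians over all genes of the large and the small subunit were 0.35 and 0.34. Among the 1794 other genes at least as abundant as the least abundant member, 778 were higher and 521 lower, with a median of 0.13. When SSC1 cells were left out, all 77 were higher (25.4% of all genes) and the median was 0.56, and with sums per batch and day, which leave fewer and larger sums, 20 were higher. With batch as a covariate the count was 63, and within batches the RPG3 shares were 6.77% to 7.29% in B1 (n = 5) and 5.94% to 7.18% in B2 (n = 3), beside 4.43% to 10.3% (n = 29) and 5.02% to 7.69% (n = 7) in SSC1-4.

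*Rps4x*, a small subunit protein encoded on the X chromosome, changed most. RPG3 libraries held 732, 951, 911, 735, 830, 831, 861 and 879 CPM of it (days 12_2, 18_3, 18_5, 20_1, 20_2, 20_8, 23_1 and 23_2). SSC1-4 libraries ran from 81.9 to 379 CPM with a median of 247 (n = 36). Every RPG3 library was above every SSC1-4 library, and the log2 fold change was 1.74 ± 0.10 (SE, edgeR adjusted p = 5.92e-27). *Rps4x* was already up in RPG1 (0.43 ± 0.12, edgeR adjusted p = 0.0179), where the 7 libraries held 295 to 378 CPM and overlapped with SSC1-4. RPG2 libraries held 547, 777 and 730 CPM and RPG4 libraries 731 and 624 CPM, and the fold changes were 1.45 ± 0.15 and 1.43 ± 0.19.

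*Rpl39*, an X-linked gene for a very small protein at the exit tunnel of the large subunit, followed. RPG3 libraries held 871, 993, 1204, 870, 912, 930, 988 and 976 CPM of *Rpl39* in the same order, and SSC1-4 libraries 226 to 646 with a median of 429. The groups did not overlap, and the log2 fold change was 1.18 ± 0.11 (edgeR adjusted p = 3.80e-16). In RPG1 *Rpl39* was 0.52 ± 0.12 higher (adjusted p = 0.00293), and in meiotic cells it was the one member that was lower, by -0.65 ± 0.14 (edgeR adjusted p = 0.00361). Meiotic libraries held 237 to 299 CPM of it. With sums per batch and day no member was called lower in meiotic cells.

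The third largest change was that of *Rpl23a*, an autosomal gene of the large subunit, at 1.15 ± 0.20 (edgeR adjusted p = 8.01e-07), with overlapping ranges of 79.0 to 397 CPM in RPG3 and 21 to 255 CPM in SSC1-4. The other X-linked members rose as well. *Rpl10*, a late-joining protein of the large subunit, was at 658 to 985 CPM in RPG3 and 297 to 732 in SSC1-4 (0.92 ± 0.08), and *Rpl36a* at 716 to 1032 and 394 to 794 CPM (0.59 ± 0.09). Both pairs of ranges overlapped. The 4 X-linked members had a median of 1.05 in RPG3, 0.75 in RPG2, 0.83 in RPG4 and 0.23 in RPG1, and 4, 3, 3 and 2 of them were called. The 73 members elsewhere had a median of 0.34 in RPG3 with 57 called, and all 669 X-linked genes tested had a median of -0.41, with 170 higher and 240 lower. The X-linked members thus lay above both groups they belong to, a difference that was described and not tested.

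**Figure D2:**
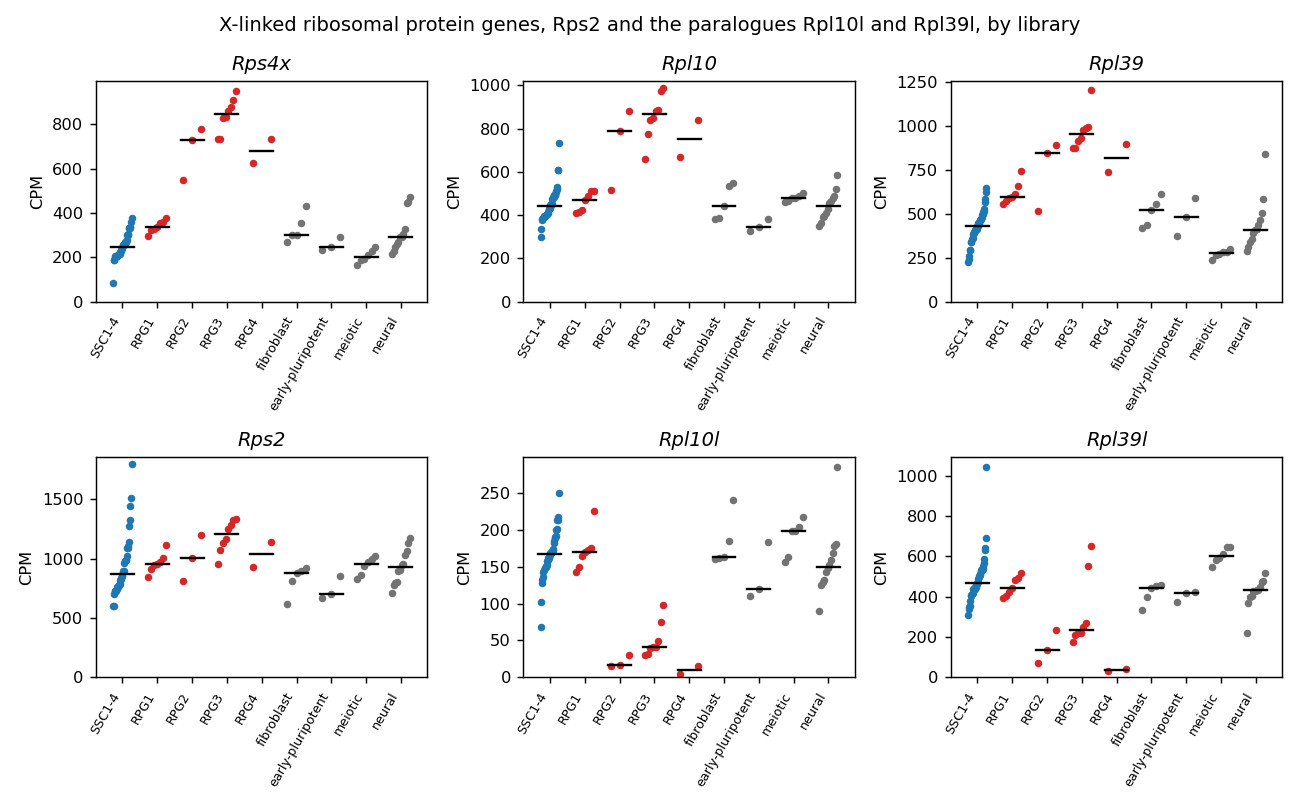
CPM per library (points, with the class median as a bar) of *Rps4x*, *Rpl10* and *Rpl39* from the X chromosome, of the autosomal *Rps2*, and of the paralogues *Rpl10l* and *Rpl39l*, by class. *Rps4x* stays at or below 379 in SSC1-4 and starts at 732 in RPG3, while *Rpl10l* and *Rpl39l* fall to their lowest levels in RPG4.

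*Rpl10l* and *Rpl39l*, autosomal paralogues of X-linked members, moved the opposite way to *Rpl10* and *Rpl39*. *Rpl10l*, known as a copy of *Rpl10* used in male germ cells, was lower by -1.71 ± 0.16 in RPG3, -2.97 ± 0.29 in RPG2 and -4.19 ± 0.40 in RPG4 (log2, edgeR, all adjusted p below 0.05). *Rpl39l*, the corresponding copy of *Rpl39*, was lower by -0.63 ± 0.15, -1.74 ± 0.25 and -3.83 ± 0.37. In RPG3 *Rpl39l* spread from 173 to 654 CPM over libraries, and in RPG4 it was at most at 39.5 CPM. Of the 9 paralogues and related genes listed, 4 were higher in RPG3 and 3 were lower. *Rps27l*, a p53-responsive copy of *Rps27*, rose by 0.89 ± 0.08, *Rpl7l1* by 0.72 ± 0.08 and *Rpl36al* by 0.64 ± 0.08. *Rps3a1*, a small subunit gene outside the naming rule, was at 0.14 ± 0.11 (edgeR adjusted p = 0.268) and was not called. Reads of near-identical copies and retropseudogenes may be shared between symbols, so a paralogue's value is uncertain. Named pseudogenes held 0.459% to 1.25% of the UMIs of the family in SSC1-4 and 0.960% to 1.53% in RPG3.

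Of the 5 genes of the stalk and surface set 3 were higher in RPG3, with a median of 0.31. The acidic stalk proteins *Rplp0* (0.31 ± 0.10) and *Rplp1* (0.31 ± 0.11) and the ubiquitin-like fusion gene *Fau* (0.37 ± 0.12) were higher in RPG3, while *Rplp2* (0.16 ± 0.12, edgeR adjusted p = 0.241) and *Rpsa*, the laminin receptor precursor, (0.21 ± 0.11, edgeR adjusted p = 0.0885) were not called. *Rpl5* and *Rpl11*, which with 5S rRNA bind Mdm2 and so act on p53, rose by 0.38 ± 0.10 and 0.67 ± 0.10. *Rps6*, the substrate of S6 kinase, rose by 0.84 ± 0.16, and *Rps27a*, made as a ubiquitin fusion, by 0.27 ± 0.11. *Rpl38*, known for its part in the translation of Hox messages, rose by 0.52 ± 0.11, *Rpl22* by 0.53 ± 0.10, *Rps19*, mutated in Diamond-Blackfan anaemia, by 0.41 ± 0.11, *Rps25* by 0.41 ± 0.09 and *Rpl41* by 0.46 ± 0.11. *Rps2*, a reference gene of the study's quantitative PCR, rose by 0.34 ± 0.11 (edgeR adjusted p = 0.00532), and its ranges of 597 to 1798 CPM in SSC1-4 and 955 to 1336 in RPG3 overlapped. The 16 members that were not called had fold changes of 0.02 to 0.48.

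**Figure D3:**
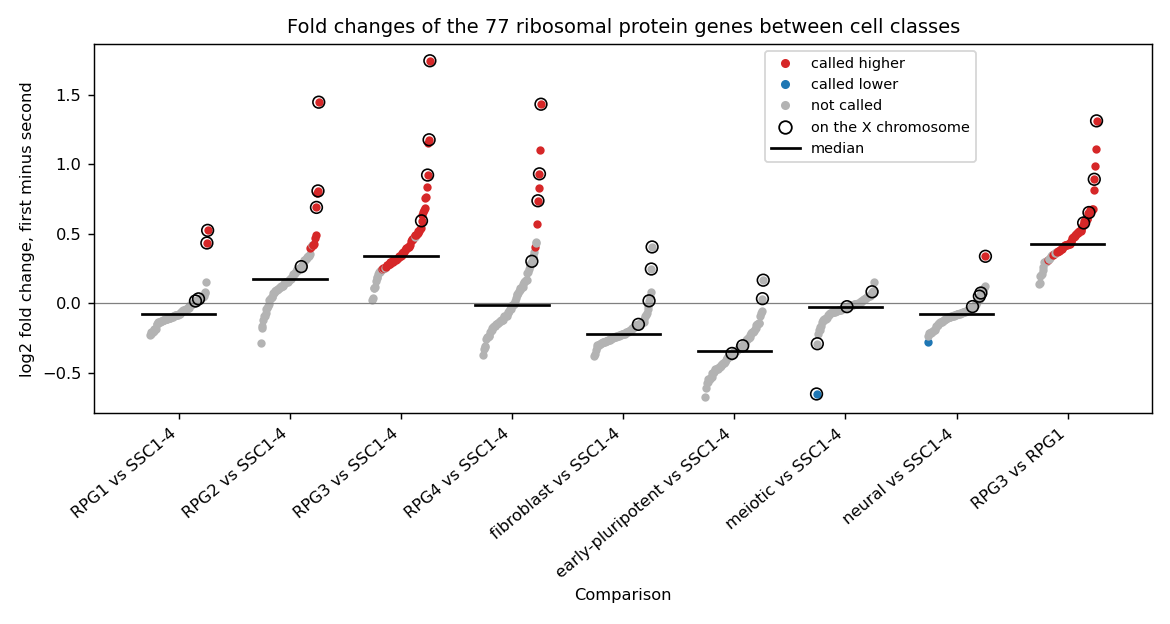
Log2 fold changes of the 77 members (points) in 9 comparisons of classes, red where higher and blue where lower at an adjusted p below 0.05, grey where not called, with the 4 X-linked members ringed. The RPG3 points are all above 0, and *Rps4x* stands highest in RPG2, RPG3 and RPG4.

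The earlier and later stages showed the same leading genes and few other calls when all cells and libraries were used, and other settings gave other counts. These comparisons share the SSC1-4 libraries with the one above. In RPG1, *Rpl39* and *Rps4x* were the 2 members called higher and none was lower, with 2.58% of all genes higher and 2.03% lower (4.61% in either direction), and the median of the members was -0.08, or 0.16 without SSC1 cells, when 5 were higher (2.47% of all genes). Neither was called with each library taken as its own block, but that fit held only the 2 libraries with both classes and called 4 genes in all (0.0289%). In RPG2 11 members were higher and none lower, against 17.5% and 18.5% of all genes. They were *Rps4x*, *Rpl39* (0.81 ± 0.17), *Rpl23a* (0.79 ± 0.31), *Rpl10* (0.69 ± 0.13), *Rps12*, *Rpl27a*, *Rpl3*, *Rpl7a*, *Rpl11*, *Rps9* and *Rps13*. The member median was 0.17 against -0.52 over all genes. Without SSC1 cells 58 members were higher (18.2% of all genes), and with cells of 100000 to 400000 UMIs 60 were (14.2% of all genes). A library block over the 2 libraries with both classes gave 70 members higher (14.6% of all genes), and with those libraries alone and no block 50 were. Without day 12_2, which had the lowest RPG2 share, 20 were higher, without day 14_5 3 and without day 14_6 5, so the count in RPG2 rested on single libraries. All 3 RPG2 libraries were of batch B2.

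In RPG4 7 members were higher and none lower, against 12.6% and 15.1% of all genes. *Rps4x*, *Rpl23a* (1.10 ± 0.36), *Rpl39* (0.93 ± 0.20), *Rps6* (0.83 ± 0.29), *Rpl10* (0.74 ± 0.15), *Rpl27a* (0.57 ± 0.18) and *Rpl7a* (0.40 ± 0.15) made up this group. The member median was -0.02 against -0.54 over all genes, and without SSC1 cells it was 0.22 and 21 members were higher (13.4% of all genes). With 2 libraries the spread was estimated mostly from the other classes, and without either library 3 members were called.

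RPG3 against RPG1 gave 56 members higher and none lower, with 19% and 22.6% of all genes. All 77 values were above 0, with a median of 0.42 against -0.07 over all genes. *Rps4x* led again with 1.31 ± 0.16, from 295 to 378 CPM in RPG1 to 732 to 951 in RPG3 without overlap. *Rpl23a* (1.11 ± 0.29) and *Rps6* (0.98 ± 0.23) followed, with ranges that overlapped. *Rpl10* rose by 0.89 ± 0.12, *Rpl11* by 0.68 ± 0.13, *Rpl22* by 0.66 ± 0.14, *Rpl39* by 0.65 ± 0.16 and *Rpl36a* by 0.58 ± 0.13. *Rps2* (0.30 ± 0.14, edgeR adjusted p = 0.0839), *Rpsa* and *Rplp2* were not called. In 26 members the groups did not overlap, and the share of all genes without overlap is not given here. Sums per batch and day gave 10 members higher, and the share of all genes in that fit is not given here.

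*Rpl29* and *Rpl23a* had the widest ranges of all members over the sums, and *Rps6*, after *Rps4x*, the next. Over the 82 sums, *Rpl29* ran from 15.2 to 628 CPM, a 41.3-fold range, *Rpl23a* from 21 to 397 CPM (18.9-fold) and *Rps6* from 43.0 to 345 CPM (8.01-fold). *Rpl27* had the narrowest range of the family, 519 to 1209 CPM (2.33-fold). In RPG3 the *Rpl29* levels were 528, 573, 42.3, 510, 601, 589, 572 and 628 CPM, in the order of libraries given for *Rps4x*. Day 18_5 was thus far below the other 7, and the fold change of 0.48 against SSC1-4 (edgeR adjusted p = 0.0622) was not called.

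Single cells fell mostly into 2 levels of *Rpl29*. Of 4339 cells, 617 were below 100 CPM, of which 488 were below 50, and 52 lay between 100 and 150; the 100 CPM line was chosen after the values were seen. The low cells went with library and class. In day 18_5 all 65 RPG3 cells were low and none of the 28 RPG1 cells was. In day 18_3 none of 58 RPG3 cells was low. In day 14_6 17 of 21 RPG2 cells were low beside 4 of 67 SSC1-4 cells, and in day 14_5 none of 15 RPG2 cells was. In day 16_4 60 of 61 meiotic and 30 of 33 SSC1-4 cells were low, while in day 16_3 11 of 93 meiotic cells were. None of the 33 RPG4 cells was low. The cause was not tested. *Rpl29* encodes a basic protein on the outside of the large subunit and lies on chromosome 9 (GRCm38 chr9:106429454-106431568, plus strand).

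**Figure D4:**
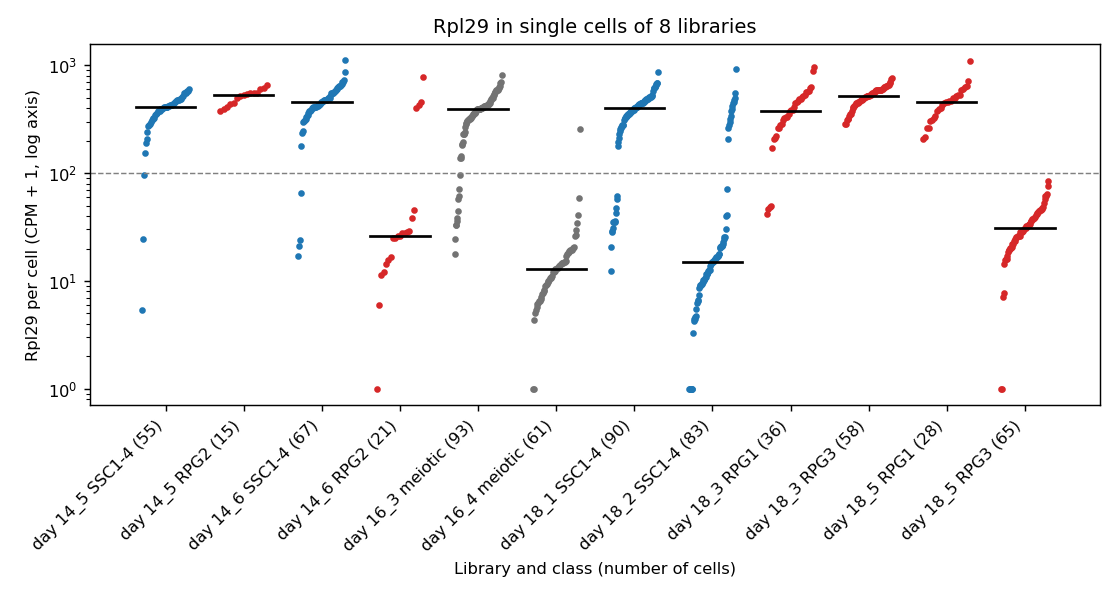
CPM + 1 of *Rpl29* in single cells (points, log axis) in 12 combinations of library and class from 8 libraries, with a dashed line at 100 CPM. Cells of the same class lie above the line in one library and below it in another, such as RPG3 in day 18_3 and day 18_5.

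*Rpl23a* and *Rps6* were low in other libraries. In day 23_2 *Rpl23a* was at 79.0 CPM in RPG3 and 23.3 in RPG1, while the other RPG3 libraries held 232 to 397 CPM and the other RPG1 libraries 99.0 to 251. In the same library *Rps6* was at 97.5 CPM in RPG3 and 43.0 in RPG1, below the other RPG3 libraries at 205 to 345 and the other RPG1 libraries at 104 to 192. All 61 RPG1 cells of day 23_2 were below 100 CPM of *Rpl23a*. Inside day 23_2 both genes were still higher in RPG3 than in RPG1. The fold changes of these 3 genes therefore depend on which libraries a class holds.

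Lists of genes that work with the ribosome were read beside the 25.2% of all genes that were higher and the 31.5% that were lower in RPG3. Of 20 tested genes known to share the TOP control, 17 were higher and none lower, with a median of 0.42. *Btf3*, a partner of nascent chains, rose by 1.45 ± 0.09, and the initiation factors *Eif4a2*, *Eif4b* and *Eif3e* by 1.59 ± 0.11, 0.82 ± 0.09 and 0.66 ± 0.07. Ribosome biogenesis genes had 22 higher and 2 lower of 29, with a median of 0.51, led by *Dkc1* (1.14 ± 0.08), which modifies rRNA, *Rrn3* (1.57 ± 0.11), which starts RNA polymerase I, *Nob1* (1.12 ± 0.09) and *Mybbp1a* (1.02 ± 0.09). Mitochondrial ribosomal proteins, encoded by a separate gene family, had 48 higher and 6 lower of 75, with a median of 0.35, and *Mrps28* rose by 2.07 ± 0.18, *Mrpl27* by 1.66 ± 0.13, *Mrps15* by 1.40 ± 0.12 and *Mrps24* by 1.2 ± 0.09. Of 16 growth regulators 11 were higher and 1 lower. *Myc*, which drives ribosome genes, rose by 4.46 ± 0.46, *Mycn* by 1.88 ± 0.14, *Trp53* by 1.44 ± 0.12 and *Eif4ebp1*, an inhibitor of cap-dependent initiation, by 1.11 ± 0.08. *Hprt* (1.34 ± 0.09), *Gapdh* (1.15 ± 0.09) and *Actb* (0.28 ± 0.11), often used as references, were also higher, and *Tbp* (-0.10 ± 0.12) was not called. In RPG4, where 12.6% of all genes were higher and 15.1% lower, 3 of the 29 biogenesis genes were higher and 3 lower, and 5 of the 20 TOP genes were higher.

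In the side branches few members were called against SSC1-4 when all cells and libraries were used, and other settings gave other counts. Fibroblast cells had no member called by edgeR, with 5.23% of all genes higher and 0.399% lower (5.63% in either direction). The member median was -0.22, 72 of 77 values were below 0 and 14 members had an unadjusted p under 0.05. The direction of the median turned when SSC1 cells were left out (0.0095) and with cells of 100000 to 400000 UMIs (0.065), where the share was 6.39% in fibroblast cells and 6.18% in SSC1-4. The 10 feeder and somatic markers summed to 320 to 2156 CPM in this class, and their part in the result was not tested. *Rps4x* was the highest at 0.40 ± 0.14 (edgeR adjusted p = 0.0663). Early-pluripotent cells, with 0.914% of all genes higher and 0.374% lower (1.29% in either direction), had no member called by edgeR and 2 lower by DESeq2. Their median was -0.35, 75 values were below 0, and 43 members had an unadjusted p under 0.05, and the median was -0.12 without SSC1 cells. *Rps27* was lowest at -0.67 ± 0.20 (edgeR adjusted p = 0.0745). With cells of 100000 to 400000 UMIs only, 19 members were lower in early-pluripotent cells, beside 1.35% of all genes. All 3 of these libraries were of batch B2.

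In meiotic cells *Rpl39* was the only member lower and none was higher, with 1.1% of all genes higher and 0.764% lower (1.86% in either direction), and the member median was -0.03, or 0.21 without SSC1 cells, when 3 were higher (2.13% of all genes). A library block over the 5 libraries with both classes gave 42 members lower (0.617% of all genes) with a median of -0.53. The same libraries without a block gave none and a median of -0.57, and sums per batch and day over all libraries gave none lower. In 4 of these 5 libraries the SSC1-4 sums came from 7 to 10 cells with medians of 11698 to 100558 UMIs, and their meiotic cells had medians of 224131 to 315181 UMIs. In neural cells *Rps4x* was higher by 0.34 ± 0.10 (edgeR adjusted p = 0.0155), with 5.77% of all genes higher and 4.97% lower. With the block 2 members were higher and none lower, beside 1.55% and 2.75% of all genes, and sums per batch and day gave none higher. Without SSC1 cells 17 were higher in neural cells, beside 7.23% of all genes.

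The small molecules were compared within classes that the authors predicted from the original condition. Levels of the 2 assays are not set against each other here. All 5C samples came from days 12 to 16. The DMSO cells of RPG1 and RPG3 came from 2 samples of day 20, DMSO_1 and DMSO_2, and those of SSC1-4 from DMSO_3, DMSO_4 and DMSO_5 of days 0, 20 and 24. Treatment, day and sample therefore cannot be told apart, and no DMSO sample held at least 5 cells of both SSC1-4 and an RPG class.

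In RPG3 the share of UMIs from the members was lower with 5C. It was 11.9%, 13.1%, 13.1%, 11.5%, 13.9% and 12.6% in the 6 5C samples, and 17.8% and 16.4% in the 2 DMSO samples, without overlap. Among cells of 60000 to 100000 UMIs it was 13.4%, 14.5%, 14.2% and 15% in the 4 5C samples with at least 5 such cells, and 17.9% and 17.5% with DMSO. In RPG1 it was 10.3% to 11.6% in 4 5C samples and 14.4% and 15.3% with DMSO. In SSC1-4 it was 9.89% to 12.1% in 8 5C samples and 11.2%, 9.96% and 11% in the 3 DMSO samples, which overlapped. The 5 SSC1-4 cells that DMSO_1 and DMSO_2 did hold had a pooled share of 14.7%, above the SSC1-4 sums of the other 3 DMSO samples. These 5 cells held 18747 to 84221 UMIs, and the medians of the other 3 samples were 66501 to 90267 UMIs. Inside the 5C samples RPG3 was above SSC1-4 in 6 of 6, with ratios of 1.02 to 1.2. RPG3 was above RPG1 in 2 of 3 5C samples (0.986 to 1.22) and in both DMSO samples (1.07 and 1.23), and above RPG2 in 2 of 3 5C samples (0.964 to 1.14) and not in the 1 DMSO sample (0.858).

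**Figure D5:**
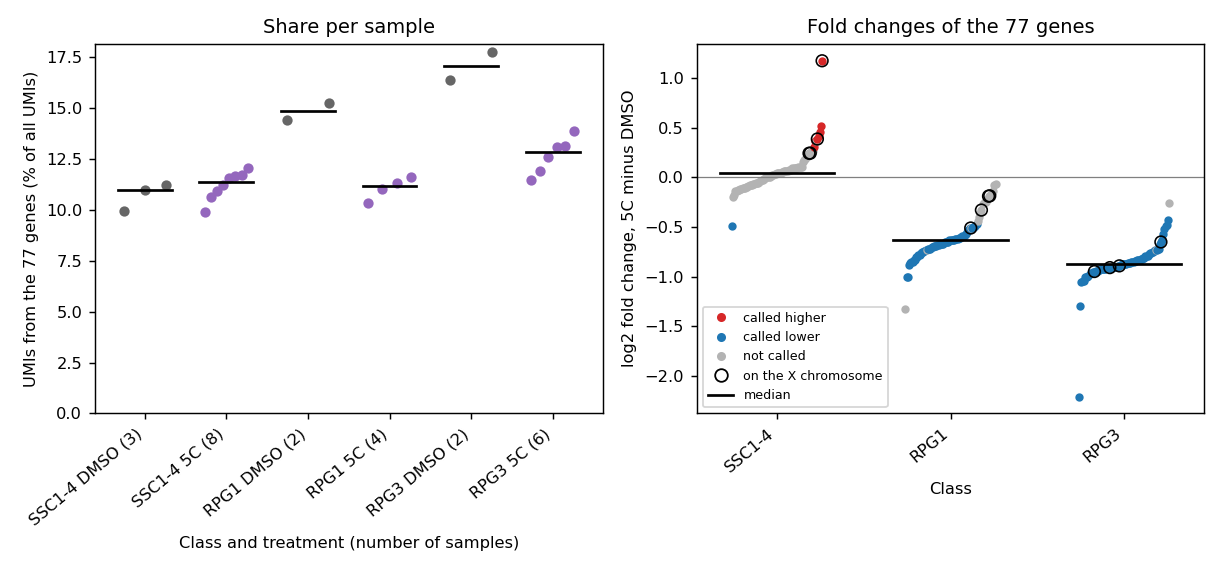
Left, percent of UMIs from the 77 members in each 5C and DMSO sample by class; right, log2 fold changes of the members, 5C minus DMSO, in SSC1-4, RPG1 and RPG3, coloured by call. Both DMSO points of RPG3 (16.4% and 17.8%) lie above all 5C points, and the RPG3 fold changes are all below 0.

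Gene by gene, 75 of 77 members were lower with 5C in RPG3 and none was higher, against 9.23% and 6.36% of the 11390 genes tested, with a median of -0.87 against 0.07. In 76 members the groups did not overlap, with only 2 DMSO samples, and the share of all genes without overlap is not given here. Other abundant genes fell too: of 426 genes at least as abundant as the least abundant member, 294 were lower and 14 higher, with a median of -0.65. *Fau* was at 1229, 1217, 1444, 1335, 1386 and 1398 CPM with 5C and 2888 and 2640 CPM with DMSO (-1.05 ± 0.10, edgeR). *Rps4x* was at 1165 to 1470 CPM and 2151 and 2064 CPM (-0.65 ± 0.11). *Rpl39* fell from 2569 and 2248 CPM to 1091 to 1413 CPM (-0.91 ± 0.12), and *Rps2* by -0.91 ± 0.10. *Rpl23a* (-1.30 ± 0.21) and *Rpl26* (-1.05 ± 0.11) were among the largest. The 8 feeder and somatic markers found in these tables summed to 7.53 to 28.6 CPM with 5C and 4.57 to 18.7 CPM with DMSO.

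*Rpl29* had the largest fold change in this comparison, -2.21 ± 0.64 (edgeR adjusted p = 0.0278), and again ran at 2 levels. The 5C samples held 61.0, 47.3, 340, 103, 552 and 44.1 CPM of *Rpl29* and the DMSO samples 937 and 879. In sample 5C_8 11 of 12 RPG3 cells and 44 of 46 SSC1-4 cells were below 100 CPM, in 5C_7 none of 32 RPG3 cells was, and in DMSO_4 34 of 36 SSC1-4 cells were. *Rpsa* (-0.25 ± 0.13, edgeR adjusted p = 0.201) and *Rps6* (-0.74 ± 0.24, edgeR adjusted p = 0.0513) were the 2 members not called. Beside the 9.23% of all genes that were lower and the 6.36% that were higher, 11 of 20 TOP genes were lower and none higher, 8 of 29 biogenesis genes were lower and 3 higher, and 35 of 74 mitochondrial ribosomal genes were lower and none higher, with a median of -0.65. Of the references, *Hprt* (-1.04 ± 0.19), *Gapdh* (-0.93 ± 0.12), *Actb* (-0.49 ± 0.12) and *Rps2* were lower.

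In RPG1 58 members were lower with 5C and none was higher, against 3.45% and 2.16% of 9350 genes, with a median of -0.63. Of 615 other genes at least as abundant as the least abundant member, 119 were lower and 11 higher, with a median of -0.34. *Rps29* was at 1708, 1876, 1990 and 1946 CPM with 5C and 3676 and 3872 with DMSO (-1.01 ± 0.11, edgeR). *Rps16* (-1.01 ± 0.12) and *Rpl37a* (-0.88 ± 0.12) followed. None of the 4 X-linked members was called in RPG1. With cells of 40000 to 150000 UMIs only 10 members were lower, with a median of -0.37, and without DMSO_2 35 were. The RPG1 cells held medians of 61677 to 121490 UMIs with 5C and 42732 and 47910 with DMSO, and the part of depth in the result was not tested beyond that limit on UMIs.

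In SSC1-4 7 members were higher and 1 lower, against 10.7% and 10.6% of 12260 genes, with a median of 0.05 against 0.02. *Rpl39* was at 586, 458, 772, 474, 651, 512, 716 and 639 CPM with 5C, and at 450, 169 and 174 CPM with DMSO. The groups did not overlap, with DMSO_3 just below the lowest 5C sample, and the log2 fold change was 1.18 ± 0.23 (edgeR adjusted p = 0.000594). *Rpl27a* (0.51 ± 0.15), *Rpl36* (0.41 ± 0.12), *Rpl10* (0.39 ± 0.12), *Rpl7a* (0.37 ± 0.12) and *Rps15* (0.31 ± 0.10) were among the others. *Rpl5* was the one that fell, from 1514, 1309 and 1448 CPM with DMSO to 845 to 1301 CPM with 5C (-0.49 ± 0.11). Without DMSO_4 1 member was called higher, without DMSO_5 4 and without 5C_2 11, so this count rested on single samples.

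The effect of 5C differed between the classes in 1 fit with interaction terms over 13513 genes, added after the data were seen. It was lower in RPG3 than in SSC1-4 for 73 members and higher for none (5.16% and 3.34% of all genes, 8.5% in either direction), with a median difference of -0.90, and lower in RPG1 than in SSC1-4 for 34 (1.13% of all genes, 1.7% in either direction), with a median of -0.61. Among the X-linked members *Rpl39* differed most in both contrasts, by -2.09 ± 0.30 and -1.67 ± 0.31. Between RPG3 and RPG1 no member differed by edgeR (1.79% of all genes did), with 16 at an unadjusted p under 0.05. These contrasts compare DMSO_1 and DMSO_2 with DMSO_3 to DMSO_5 as much as they compare classes.

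The established lines had 1 library each and allow no test. The members took 7.63% of UMIs in gPSCs at passage 1 (48 cells, exact 95% binomial interval 7.61% to 7.64%), 5.73% at passage 15 (32 cells, 5.71% to 5.74%) and 6.24% in mESCs (45 cells, 6.22% to 6.25%), and these intervals cover counting error only. The median cell held 283965, 356973 and 321636 UMIs in the same order, so the shares ran opposite to the depths, whose part was not tested. Of the 77 members 76 were higher at passage 1 than at passage 15, with a median ratio of 1.34, and the exception was *Rpsa* with 667 CPM against 716. *Rps4x* was at 905, 662 and 654 CPM and *Rpl39* at 1010, 781 and 784 CPM in the same order. All 3 lines held more *Rps4x* than any SSC1-4 library of the original condition, whose highest value was 379 CPM. The CPM of the lines are unscaled and those of SSC1-4 are scaled. The lines also grew in another medium, which cannot be told apart from cell type here.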

How the data were processed

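Mouse cells were profiled by modified STRT-seq in 49 libraries (46 of the original condition) and 13 further samples by scTrio-seq2, whose RNA counts were used. The deposited values are raw UMI counts, with genes in rows and cells in columns. As given in the submitters' processing notes and the methods, the authors aligned reads to mm10 with STAR 2.7.2b, assigned them with featureCounts 2.0.0, counted UMIs with UMI-tools, and kept cells and genes by their filters on genes detected and mitochondrial UMIs. The authors also deposited the percent of mitochondrial UMIs and the cluster of each cell. The study does not say in the sources used here how reads shared by a gene and its retropseudogenes were counted. How doublets were treated is not given in the sources used here, and none were removed here. Classes of the 5C and DMSO cells were the authors' predictions, used as labels only.

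A cell belonged to the sample whose file held it, and 0 cells had the same counts as another cell. Cells of one class in one library were added up where there were 5 or more of them. edgeR 4.0.16 (R 4.3.3) fitted its quasi-likelihood test to these sums with TMM scaling and filterByExpr, with all 9 classes in 1 fit, and for 5C against DMSO within each class. A gene counted as called below an adjusted p of 0.05 (Benjamini-Hochberg, over all genes tested), with no minimum fold. CPM of the sums are UMIs of a gene over the TMM-scaled UMI total of the sum, and CPM of the lines are over the unscaled total. A sum held 33311 to 1560007 UMIs from the members, and sums of 5C and DMSO samples came from 3888311 to 10723044 UMIs per sample. Intervals and counts cover counting error only where no replicate spread is given. Shares were described with no test. Start sites were read from RefSeq promoters of GRCm38.p6, the build that mm10 follows, on the strand of the gene.

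The genes named were, per comparison, the 3 largest called changes in each direction, members called against the majority, 19 members fixed by role, and up to 4 genes of each other list with the smallest adjusted p in RPG3 against SSC1-4. Other names, among them those in the account of *Rpl29* and the genes listed as not called or absent, were chosen after their values were seen. The lists were TOP partners, ribosome biogenesis, growth regulators, mitochondrial ribosomal proteins, paralogues, reference genes, and markers of SSC, pluripotent, fibroblast, early-pluripotent, meiotic, neural and feeder or somatic cells. Some results for single genes are not reported here. The members, lists and tests were chosen with earlier results of these data known.

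Alternatives were DESeq2 1.42.0 (its size factors and its Wald test), scaling without the members, no filter, batch as a covariate, sums per batch and day, leaving out libraries, and the library as a block. Added after seeing the data were leaving out SSC1 cells, limits on UMIs per cell, the blocked libraries without the block, and the interaction of 5C with class. Sums of different classes from 1 library are parts of the same sample, so a library pairs them. Their deviations from the class means correlated at -0.09 to 0.37. The scripts were tested on simulated data.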

Additional observations from a re-analysis of the deposited data

Results flagged for a closer look

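The share of UMIs from the ribosomal protein genes in RPG3 was lowest in day 12_2, at 5.94%, and this library stood apart from the other 7 by Dixon's test. The *Rpl39* level of RPG3 was highest in day 18_5, at 1204 CPM, by the same test. Of 43 groups of values checked these were the 2 that stood out, and chance gives about 1 in 20. The effect of 5C differed between classes: 73 members were lower in RPG3 than in SSC1-4 and 34 were lower in RPG1 than in SSC1-4, by the interaction terms of the edgeR fit. Different DMSO samples served the RPG classes and SSC1-4, so class and sample cannot be told apart there.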

How the results depend on the processing

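Of the values recomputed with 1 replicate left out 191 stayed within their limits and 10 moved, and under all other settings 273 stayed and 59 moved. Medians near 0 changed sign in places, as given here, and the cause of the changes was not tested. Where a count of members under another setting stands without a share of all genes, that share is not given, and the count cannot be set against it. With sums per batch and day the members called higher were 1 in RPG1, 3 in RPG2, 20 in RPG3, 3 in RPG4, 0 in neural cells and 10 in RPG3 against RPG1, those lower were 0 in meiotic and 0 in neural cells, and the medians were 0.046 in RPG1 and 0.26 in RPG3 against RPG1. Without SSC1 cells 5 members were higher in RPG1, 58 in RPG2, 21 in RPG4, 1 in fibroblast, 3 in meiotic and 17 in neural cells, 0 were lower in neural cells, and the medians were 0.16 in RPG1, 0.56 in RPG3, 0.22 in RPG4, 0.0095 in fibroblast, -0.12 in early-pluripotent and 0.21 in meiotic cells.

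With cells of 100000 to 400000 UMIs 60 members were higher in RPG2 and 1 in fibroblast cells (median 0.065), 19 were lower in early-pluripotent and 0 in neural cells, the shares were 6.39% in fibroblast and 5.19% in early-pluripotent cells, and the log2 ratios within libraries were 0.067 for SSC2 over SSC3 and 0.11 for Meiotic 2 over Meiotic 1. With the library as a block 0 members were higher in RPG1 (median 0.10), 70 in RPG2 and 2 in neural cells, 42 were lower in meiotic (median -0.53) and 0 in neural cells, and the RPG3 median was 0.53. The block changed no other call count by over 1.5 times, with 65 higher in RPG3 and 76 in RPG3 against RPG1. The same libraries without it gave 0 higher in RPG1 (median 0.083), 50 in RPG2, 25 in RPG3 (median 0.51) and 0 in neural cells, and 0 lower in meiotic (median -0.57) and neural cells. No paired analysis was possible for RPG4 or for 5C in RPG1 and RPG3, because 0 libraries held both RPG4 and SSC1-4 sums and the 5C and DMSO samples shared 1 number. In SSC1-4 the numbers of 5C and DMSO samples share only a number, and with them as a block 9 members were higher and 1 lower with a median of 0.08.

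DESeq2's size factors and its Wald test each gave 11 members higher in RPG4, 1 in fibroblast cells and 0 lower in neural cells, and the Wald test 2 lower in early-pluripotent cells. With batch as a covariate 0 were lower in neural cells. With 5C and DMSO cells of 40000 to 150000 UMIs 10 members were lower in RPG1 (median -0.37).

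With 1 library left out the members higher ranged from 1 to 2 in RPG1, 3 to 20 in RPG2, 51 to 65 in RPG3, 3 to 3 in RPG4 and 45 to 61 in RPG3 against RPG1, the lower ones from 1 to 1 in meiotic cells, and none was called in fibroblast or early-pluripotent cells. In RPG1 the count of 1 came without day 18_3. The medians ranged from -0.09 to -0.05 in RPG1, 0.06 to 0.36 in RPG2, 0.32 to 0.38 in RPG3, -0.10 to 0.08 in RPG4, 0.40 to 0.47 in RPG3 against RPG1, -0.27 to -0.15 in fibroblast, -0.44 to -0.30 in early-pluripotent and -0.05 to 0.01 in meiotic cells. For 5C the higher members ranged from 1 to 11 and the median from -0.04 to 0.08 in SSC1-4, the lower members from 35 to 59 and the median from -0.65 to -0.57 in RPG1, and the lower members from 67 to 75 and the median from -0.96 to -0.80 in RPG3. RPG2 rested on 47 cells, RPG4 on 33 and DMSO RPG1 on 16.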

Other observations

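Classes that had no test among the small-molecule samples also held ribosomal protein UMIs at uneven levels. In RPG2 the share was 19.1% in DMSO_2 and 10.6% to 13.1% with 5C, and in RPG4 it was 16.4% and 14.2% in the DMSO samples and 11.6% with 5C. Early-pluripotent cells had 8.97% to 10.4% in the 3 5C samples with at least 5 of them, and the neural cells of 3 DMSO samples had 8.85% to 12.6%. Cells that the prediction left without a class had 9.70% to 11.1% in 4 5C samples and 11.4% in 1 DMSO sample.

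In the lines *Rps29*, a zinc-binding protein of the small subunit, was at 1617 CPM in gPSCs at passage 1 and 966 at passage 15, with 1 library each. Between mESCs and gPSCs at passage 15, 63 of the 77 members were higher in mESCs, with a median ratio of 1.07.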
